A study of Mus musculus with 6 samples.

Results

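The iron and 2-oxoglutarate dioxygenases are enzymes that hold ferrous iron at the active site and use oxygen and 2-oxoglutarate to hydroxylate or demethylate proteins, nucleic acids and small metabolites. Vitamin C (ascorbate) keeps the iron of many of them in the reduced state, which is why collagen hydroxylation fails in scurvy and why the TET and JmjC enzymes of ES cells are studied under vitamin C. A list of 58 genes was drawn up by enzyme family, with no threshold on measured values: the TET methylcytosine dioxygenases, proteins with a JmjC domain, the prolyl, lysyl and aspartyl hydroxylases, the ALKBH proteins and FTO, the OGFOD proteins, and the enzymes of carnitine synthesis and phytanoyl-CoA oxidation. Of these, 56 were measured by a probe set with exactly 1 gene symbol, out of 19938 genes in all. Alkbh1 shares its probe set with another symbol, and Tmlhe has none with a symbol here. The list was chosen with earlier results of these data known.

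RNA of mouse embryonic stem (ES) cells carrying the Oct4-GiP reporter was hybridised to one-colour Affymetrix arrays, 3 of untreated cells and 3 of cells given vitamin C as L-ascorbic acid 2-phosphate at 200 μg/ml for 72 hours. Both groups grew on 0.1% gelatin in N2B27 medium with LIF at 1000 U/ml, the MEK inhibitor PD0325901 at 1 μM and the GSK3β inhibitor CHIR99021 at 3 μM, and the series calls the replicates biological triplicates of this 1 line. Values are log2 signals. A signal is compared only between arrays for the same probe set, and a difference is the vitamin C mean minus the untreated mean. A gene is called at an adjusted p under 0.05 in limma, with Benjamini-Hochberg adjustment over all 19938 genes, and each adjusted p of a single gene below comes from that fit unless another setting is named. Arrays of 1 group correlated across genes at 0.995 to 0.996. Of 18 pluripotency markers, 7 rose and 1 fell, with Fbxo15, Tbx3 and Dppa2 (higher) and Tcl1 (lower) having the smallest p. Without moderation the calls of Dppa2 (adjusted p = 0.0569) and Tcl1 (0.0642) were lost. The other 10 did not pass, with differences from -0.18 to 0.18, among them Pou5f1 (-0.12), Esrrb (-0.05) and Sox2 (0.13). Over all genes 5.75% rose and 7.4% fell, and 7.4% and 13% of genes above the median signal. The summed linear signal of the list was 26730 to 27040 on the untreated arrays and 28424 to 28951 with vitamin C.

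Most dioxygenase genes were not called with vitamin C, and the changes that passed the test were mainly falls. Of the 56 genes, 11 fell, 2 rose and 43 did not pass, so that 23.2% were called where 13.2% of all genes were (5.75% higher and 7.4% lower). Called genes are more frequent among brighter probe sets, and 48 of the 56 lay above the median gene in mean signal, where 20.4% of all genes were called (7.4% higher and 13% lower). All 13 called genes were among those 48, which is 27.1%. These shares were not tested against each other, and nothing particular to the family is read from them. For 23 of the 56 genes (41.1%) the treated and untreated ranges were fully apart, 8 with vitamin C above and 15 with it below. The same held for 35% of all genes (16.8% above and 18.2% below) and for 50.1% of genes brighter than the median (19.6% above and 30.5% below). The median difference was 0.03, beside 0.01 over all genes, and the called dioxygenase genes had a median size of 0.39 on the log2 scale, beside 0.41 for all called genes. Only P4ha1 among the 56 differed by 2-fold or more. For 42 of the 43 genes that did not pass, the 95% interval lay inside 1.5-fold in either direction, the exception being Alkbh3.

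With 1 array left out the count of called dioxygenase genes dropped to 8, 8 and 8 without untreated replicates 1, 2 and 3 and to 6, 8 and 7 without vitamin C replicates 1, 2 and 3. P4ha1, P4ha2, Plod1, Kdm4c, Ogfod3 and Phyhd1, 6 genes that fell, passed in each of these 6 fits. Quantile normalization of the named probe sets moved the split from 2 higher and 11 lower to 4 higher and 10 lower. Over all genes, centring each array on its median moved it from 1147 higher and 1476 lower to 866 and 1830.

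**Figure D1:**
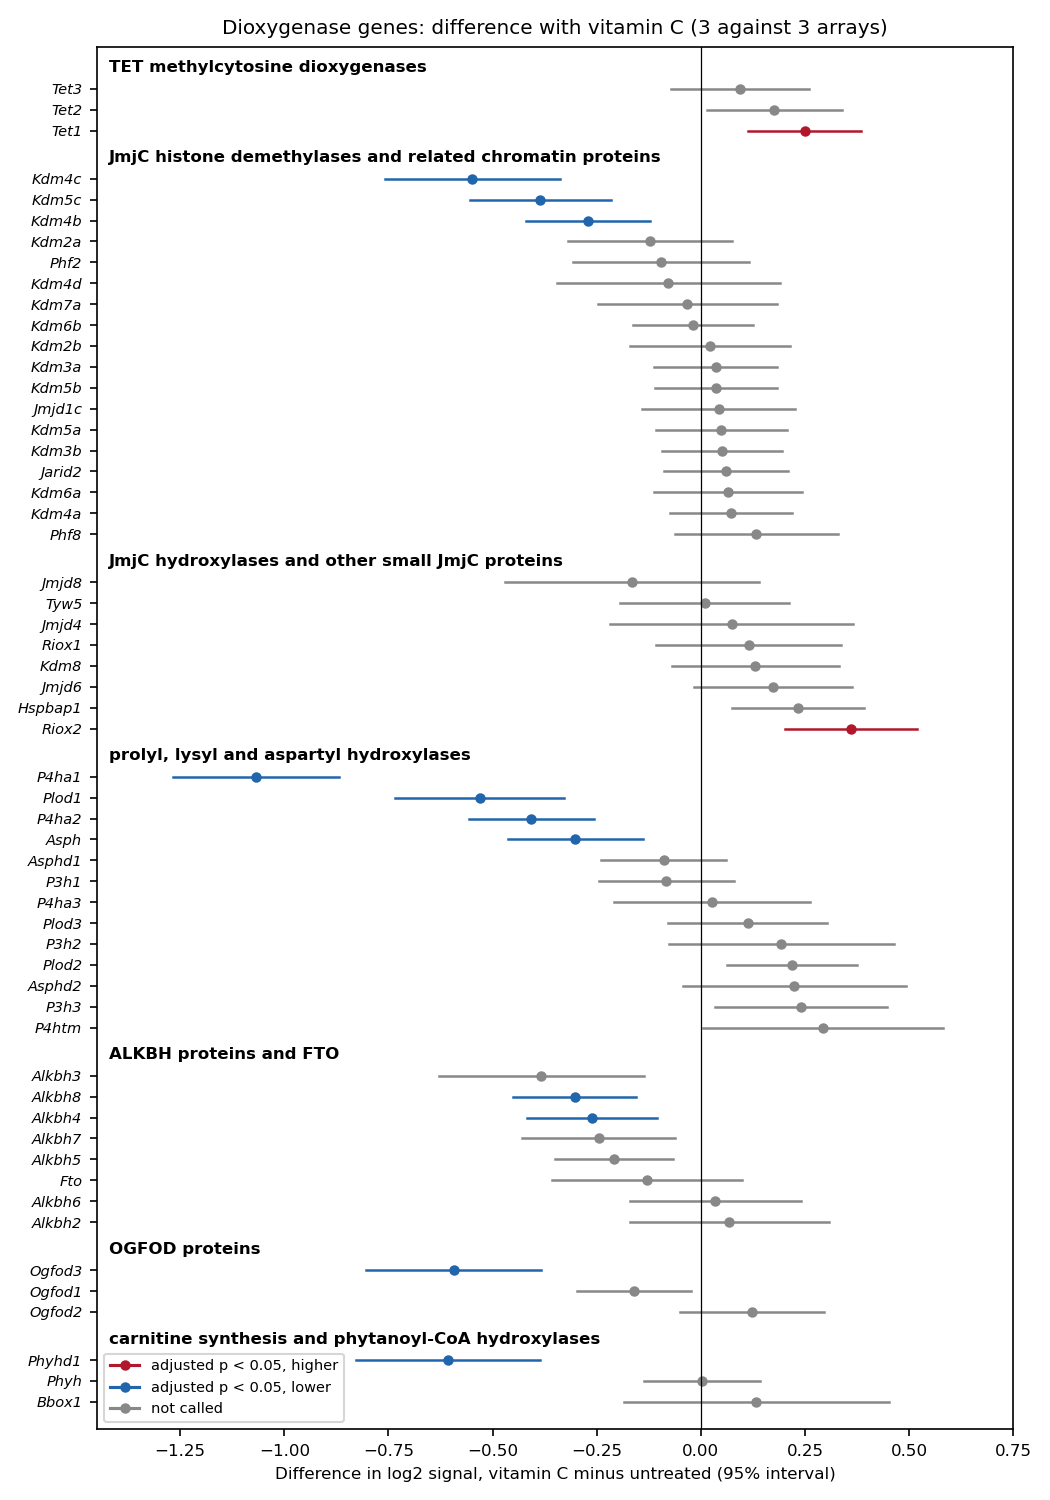
The difference in log2 signal (x axis, vitamin C minus untreated, 3 arrays each) for each of the 56 measured genes (y axis), grouped by family, with points for the estimate and bars for the 95% interval of the limma fit (red called higher, blue called lower, grey not called). The 11 genes that fell spread over 5 of the 7 families, and P4ha1 lies farthest from 0 at -1.07.

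**Figure D2:**
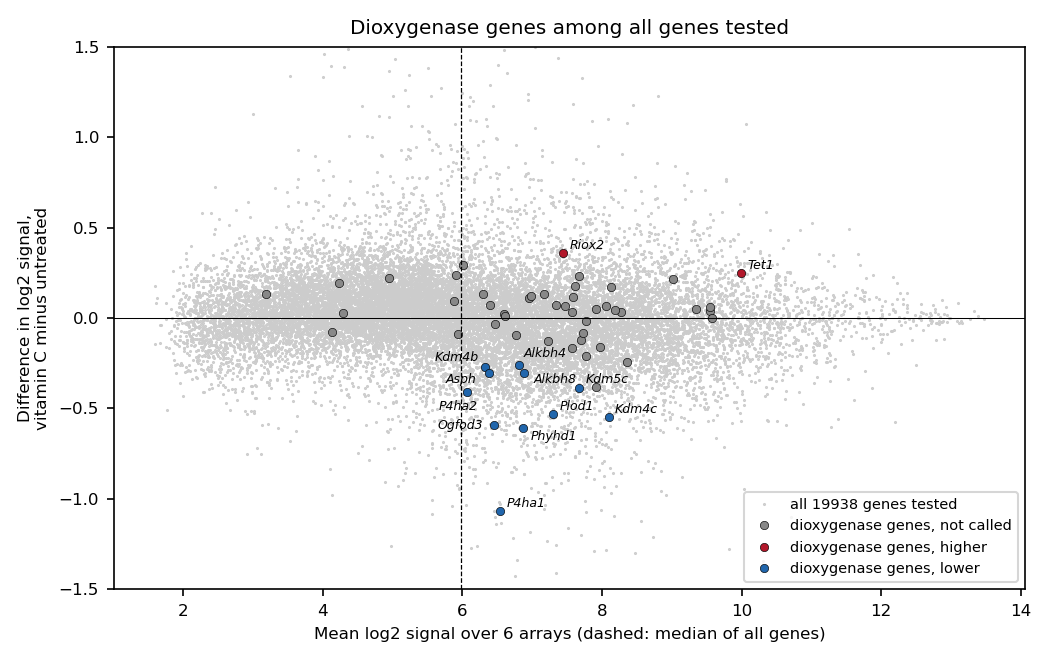
Mean log2 signal over the 6 arrays (x axis) against the difference between vitamin C and untreated (y axis, cropped at 1.5 in either direction, which leaves out 47 genes) for all 19938 genes as small grey dots and the dioxygenase genes as large points (red called higher, blue called lower, grey not called). The 13 called genes all lie to the right of the dashed line, which marks the median gene.

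The collagen prolyl 4-hydroxylases, which hydroxylate proline in collagen chains so that the triple helix is stable, held the strongest fall of the list. P4ha1 encodes a catalytic alpha subunit of this enzyme. Its log2 signal was 7.09, 7.04 and 7.09 on the untreated arrays and 6.13, 6.05 and 5.84 with vitamin C. The vitamin C arrays all lay below the untreated ones, and the difference of -1.07 ± 0.09 (SE, n = 3 each, adjusted p = 0.00062) is a 2.10-fold fall. P4ha2, the gene of a second alpha subunit, had signals of 6.34, 6.25 and 6.24 in untreated cells and 5.90, 5.82 and 5.89 with vitamin C. Its groups did not overlap either, and it fell by 0.41 ± 0.06 (SE, n = 3 each, adjusted p = 0.00779). The third alpha subunit gene, P4ha3, differed by 0.03 with a 95% interval from -0.21 to 0.26, on a probe set near the lower quartile of the arrays (4.17 to 4.49 against a quartile of 3.99 to 4.05). The beta subunit they share, the disulfide isomerase P4hb, is not a dioxygenase and differed by -0.20 ± 0.06 (SE, adjusted p = 0.0773). P4htm, a prolyl 4-hydroxylase of the endoplasmic reticulum membrane, had signals of 5.98, 5.60 and 6.03 untreated and 6.14, 6.06 and 6.28 with vitamin C, a difference of 0.29 ± 0.12 (SE, adjusted p = 0.167) that did not pass.

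Among the lysyl hydroxylases, which prepare collagen lysines for crosslinks and glycosylation, 1 of 3 fell. Plod1 had signals of 7.49, 7.74 and 7.48 in untreated cells and 7.10, 7.03 and 6.99 with vitamin C. Every vitamin C array was lower than every untreated array, with a difference of -0.53 ± 0.09 (SE, n = 3 each, adjusted p = 0.00904; 0.0533 in a test without moderation). Plod2, the telopeptide lysyl hydroxylase, had signals of 8.94, 8.93 and 8.85 untreated and 9.04, 9.18 and 9.16 with vitamin C. Its groups did not overlap and lay in the opposite order, but the difference of 0.22 ± 0.07 (SE, adjusted p = 0.0734) did not pass. Plod3, whose product also glycosylates collagen, differed by 0.11 with an interval from -0.08 to 0.30.

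The prolyl 3-hydroxylases, which modify a few collagen prolines, did not pass: P3h1 differed by -0.08, P3h2 by 0.19 and P3h3 by 0.24 (adjusted p = 0.12 for P3h3). Asph, the aspartyl and asparaginyl hydroxylase of EGF-like domains, had signals of 6.44, 6.58 and 6.59 untreated and 6.18, 6.24 and 6.28 with vitamin C. It fell by 0.30 ± 0.07 (SE, n = 3 each, adjusted p = 0.03), without overlap between the groups. That call was lost without untreated replicate 2 (adjusted p = 0.0921) or 3 (0.0945) and without vitamin C replicate 1 (0.0925), 2 (0.0762) or 3 (0.0606), while the difference stayed between -0.35 and -0.27. It was also lost without moderation (0.0633) and with all probe sets tested (0.0641). Its relatives Asphd1 and Asphd2 differed by -0.09 and 0.22 and did not pass.

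In the whole group of 13 prolyl, lysyl and aspartyl hydroxylases, 4 fell, none rose and 9 did not pass, with a median of 0.03. That is 30.8% called, beside 13.2% of all genes and 20.4% of genes above the median signal. These shares were not tested against each other. Of 12 measured partners of the collagen hydroxylases, none fell and 1 rose (8.3% called), the crosslinking oxidase gene Lox, by 1.49 ± 0.18 (SE, adjusted p = 0.00296) from an untreated mean of 3.61. All 3 untreated Lox values (3.85, 3.67 and 3.33) were under each array's lower quartile (3.99 to 4.05), so the size of its difference is uncertain. Markers of other cell types moved beside these genes. Over all genes 5.75% rose and 7.4% fell, and 7.4% and 13% of genes above the median signal. In the fibroblast list of 22 measured genes 9 rose, with the smallest p for Dcn (1.06), Acta2 (1.83), Tagln (1.03) and the dim Lox, and 1 fell (Pdgfrb, -0.32, named after its value was seen). Their summed linear signal was 3323 to 3386 on the untreated arrays and 3728 to 3767 with vitamin C. Of 19 primitive endoderm markers 6 rose and none fell, with the smallest p for Dab2 (0.89, or 0.44 as the mean of its probe sets), Sparc (0.43), Cited1 (0.45) and Gata6 (0.39). The other 13 did not pass, among them Gata4 (-0.06), Sox7 (0.02), Sox17 (0.15) and Foxa2 (0.08). The summed signals of the list were 2998 to 3161 and 3714 to 3800. Bright probe sets weigh most in such a sum, here Sparc (means of 10.45 untreated and 10.89 with vitamin C). The mean log2 signal of the list was 6.07 to 6.13 untreated and 6.28 to 6.30 with vitamin C. Of 12 trophectoderm markers 1 rose, Gata3 (0.35), and 3 fell, the keratins Krt8 (-0.58), Krt7 (-0.36) and Krt18 (-0.35), with summed signals of 1390 to 1464 and 1279 to 1303. The call of Gata3 was lost with any 1 array left out (adjusted p from 0.0576 to 0.123), without moderation (0.123), with all probe sets tested (0.0983), after median centring (0.0682) and with quantile normalization (0.133). Krt7 was not called without untreated replicate 1 (adjusted p = 0.0562) or 3 (0.068), without vitamin C replicate 1 (0.0708) or 2 (0.0618), without moderation (0.0645) or with all probe sets tested (0.0528). Of the fits with 1 array left out, Krt18 passed only in the one without untreated replicate 3 (the others from 0.0507 to 0.0836), and it was lost without moderation (0.0742) and with all probe sets tested (0.0621). Their part in the falls of P4ha1, P4ha2 and Plod1 was not tested. In RNA of whole cultures, fewer cells that express a gene and less RNA per cell cannot be told apart.

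P4ha1, P4ha2, Plod1, Plod2, Kdm3a, Kdm4b and Kdm4c are known as genes that the hypoxia-inducible factors (HIF) induce. Of these 7, 5 fell and none rose, with a median of -0.41, and Plod2 and Kdm3a did not pass. Of the 49 measured dioxygenase genes outside this group, 6 fell and 2 rose, which is 16.3% called. Over all genes 13.2% were called (7.4% lower), and 20.4% (13% lower) of genes above the median signal. Of 21 HIF targets that are not dioxygenases 14 fell, none rose and 7 did not pass, with a median of -0.94. The 7 were Vegfa (-0.06), Adm (0.12), Car9 (-0.39), Hilpda (0.03), Mxi1 (0.03), Pfkfb3 (-0.20) and Pfkfb4 (-0.0047). The 14 were Bnip3, Ndufa4l2, Aldoc, Slc16a3, Pfkl, Tpi1, Ankrd37, Ldha, Narf, Pgk1, Bhlhe40, Slc2a1, Bnip3l and Pdk1, with differences from -3.70 for Bnip3 to -0.37 for Pdk1. The call of Pdk1 was lost without untreated replicate 1 (adjusted p = 0.0646) or 2 (0.0712), without vitamin C replicate 1 (0.0912) or 2 (0.0786), without moderation (0.0899) and with all probe sets tested (0.0694). The group of 7 and the list of 21 were both compiled with earlier results of these data known. Neither count is therefore independent evidence of a direction.

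HIF binds a short core sequence, so the promoters of 6 dioxygenase genes are shown: 4 of the HIF-induced genes that fell, 1 HIF-induced gene that did not pass (Kdm3a), and Phyhd1, which fell and is outside that group. Each is the 250 bases before the RefSeq transcript start in GRCm38.p6, written 5′ to 3′ along the gene's strand, with capitals for each match to the core ACGTG or GCGTG on either strand (CACGT and CACGC on the printed strand; CACGTG counts once per strand). Where RefSeq gives several starts the window with the most matches is shown.
P4ha1: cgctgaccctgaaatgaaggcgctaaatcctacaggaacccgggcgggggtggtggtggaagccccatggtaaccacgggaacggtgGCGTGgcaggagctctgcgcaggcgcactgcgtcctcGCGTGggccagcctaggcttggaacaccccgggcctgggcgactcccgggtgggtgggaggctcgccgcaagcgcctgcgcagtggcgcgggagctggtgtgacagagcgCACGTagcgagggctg
P4ha2: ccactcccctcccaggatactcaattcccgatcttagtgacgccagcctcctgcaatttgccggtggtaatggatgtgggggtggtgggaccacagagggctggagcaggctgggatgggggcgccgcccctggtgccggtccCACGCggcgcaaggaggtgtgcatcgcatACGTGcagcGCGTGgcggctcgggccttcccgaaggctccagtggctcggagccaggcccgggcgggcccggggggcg
Plod1: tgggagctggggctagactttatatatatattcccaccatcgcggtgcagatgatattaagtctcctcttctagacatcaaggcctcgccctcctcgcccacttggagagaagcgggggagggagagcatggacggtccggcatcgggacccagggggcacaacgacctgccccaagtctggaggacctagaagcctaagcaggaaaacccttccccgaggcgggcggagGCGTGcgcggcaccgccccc
Kdm4c: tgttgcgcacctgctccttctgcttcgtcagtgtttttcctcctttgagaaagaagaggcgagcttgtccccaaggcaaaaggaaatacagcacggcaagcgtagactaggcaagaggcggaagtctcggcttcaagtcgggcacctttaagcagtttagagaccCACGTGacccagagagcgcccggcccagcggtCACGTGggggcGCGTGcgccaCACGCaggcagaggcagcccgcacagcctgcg
Kdm3a: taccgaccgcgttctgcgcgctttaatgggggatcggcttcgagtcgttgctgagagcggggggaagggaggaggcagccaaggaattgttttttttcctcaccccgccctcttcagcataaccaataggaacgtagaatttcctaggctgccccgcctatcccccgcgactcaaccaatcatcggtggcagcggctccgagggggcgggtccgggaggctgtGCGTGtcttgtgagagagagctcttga
Phyhd1: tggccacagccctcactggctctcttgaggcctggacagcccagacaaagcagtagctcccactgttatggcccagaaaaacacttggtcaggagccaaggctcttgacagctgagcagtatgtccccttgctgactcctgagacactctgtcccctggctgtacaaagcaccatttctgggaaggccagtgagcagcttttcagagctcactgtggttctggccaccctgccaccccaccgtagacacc
The windows lie at chr10:59323046-59323295 on the plus strand for P4ha1, chr11:54100674-54100923 (plus) for P4ha2, chr4:147936777-147937026 (minus) for Plod1, chr4:74251629-74251878 (plus) for Kdm4c, chr6:71632918-71633167 (minus) for Kdm3a and chr2:30265953-30266202 (plus) for Phyhd1. P4ha1 and P4ha2 have 3 matches each, Plod1 and Kdm3a have 1, and Phyhd1 has 0 in any of its 3 windows. The other 2 windows of Kdm3a hold 0. The Kdm4c window has 6, of which 4 come from 2 CACGTG palindromes, and the other Kdm4c window has 0. Such matches are common: 38.6% of all 32851 windows of this length hold at least 1. In some window, 5 of the 8 dioxygenase genes that fell and have a promoter entry held a match, as did 20 of 36 that were not called, 49.9% of the 15614 tested genes with an entry and 61.9% of the 1188 genes among them that fell. Promoter entries matched 47 of the 58 genes by symbol.

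The TET enzymes oxidise 5-methylcytosine in DNA, the first step of active demethylation, and their 3 genes had differences above 0. The same held for 10521 of all 19938 genes. Of the 3 TET genes 1 was called (33.3%), beside 13.2% of all genes and 20.4% of genes above the median signal. Tet1, the main TET gene of ES cells, had signals of 9.87, 9.88 and 9.86 in untreated cells and 10.07, 10.16 and 10.12 with vitamin C. All vitamin C arrays were higher, and Tet1 rose by 0.25 ± 0.06 (SE, n = 3 each, adjusted p = 0.0321), a 1.19-fold change. The call held in only 6 of 15 other settings, among them quantile normalization (adjusted p = 0.0253) and a test without moderation (0.0212). It was lost when any 1 of the 6 arrays was left out (adjusted p from 0.0601 to 0.0932). The fit over every probe set (0.0558), median centring (0.0758) and the replicate block (0.081) also lost it. Tet1 has 2 further probe sets, which gave differences of 0.21 and 0.26 in a fit over all probe sets of the table, where the probe set used for the gene gave 0.25. Tet2 had signals of 7.60, 7.44 and 7.53 untreated and 7.64, 7.75 and 7.72 with vitamin C. Its groups did not overlap, but the difference of 0.18 ± 0.07 (SE, adjusted p = 0.143) did not pass, with an interval from 0.01 to 0.34. Tet3 had signals of 5.83, 5.87 and 5.79 untreated and 5.82, 6.004 and 5.95 with vitamin C, overlapping values with a difference of 0.09 ± 0.07 (SE, adjusted p = 0.431). Its second probe set gave -0.04.

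The JmjC histone demethylases remove methyl groups from histone lysines, and most of their genes differed little. Of 18 genes, 3 fell, none rose and 15 did not pass, and the differences of those 15 ran from -0.12 to 0.13. The share called was 16.7%, beside 13.2% of all genes and 20.4% of genes above the median signal. Both members that fell in the KDM4 family encode demethylases of H3K9 and H3K36. Kdm4c had signals of 8.42, 8.30 and 8.39 in untreated cells and 7.64, 7.93 and 7.88 with vitamin C. Its highest vitamin C value lay below its lowest untreated value, and it fell by 0.55 ± 0.09 (SE, n = 3 each, adjusted p = 0.00901; 0.0553 without moderation). Kdm4b went from 6.49, 6.42 and 6.46 to 6.24, 6.11 and 6.21. It fell by 0.27 ± 0.06 (SE, n = 3 each, adjusted p = 0.0328), a call lost with any 1 array left out (adjusted p from 0.0588 to 0.0938) or with all probe sets tested (0.0633). Kdm4a and Kdm4d differed by 0.07 and -0.08 and did not pass.

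In the KDM5 family, which demethylates H3K4, Kdm5a and Kdm5b differed by 0.05 and 0.04, with intervals from -0.11 to 0.21 and from -0.11 to 0.18. The X-linked Kdm5c had signals of 7.78, 7.95 and 7.87 untreated and 7.45, 7.56 and 7.44 with vitamin C. The groups did not overlap and Kdm5c fell by 0.39 ± 0.07 (SE, n = 3 each, adjusted p = 0.015). The fit no longer called it without untreated replicate 2 (adjusted p = 0.0508) or without vitamin C replicate 1 (0.0546) or 3 (0.0524). Its Y-linked counterpart Kdm5d, kept apart as one of 9 measured oxygenases outside the list, had signals of 4.67, 4.75 and 4.85 untreated and 5.61, 5.70 and 5.60 with vitamin C. It rose by 0.88 ± 0.07 (SE, n = 3 each, adjusted p = 0.00062). Because the X and Y copies resemble each other, a probe for one may also bind the other, and the value of each is uncertain. For the other X and Y pair, the H3K27 demethylase gene Kdm6a differed by 0.07 and Uty by -0.08, and neither passed.

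Of the remaining demethylase genes, the H3K9 enzymes Kdm3a and Kdm3b and their relative Jmjd1c differed by 0.04, 0.05 and 0.04. The H3K36 enzyme Kdm2a differed by -0.12 and Kdm2b, which targets polycomb complexes to CpG islands, by 0.02. Kdm6b, the other H3K27 demethylase, differed by -0.02. The PHD-finger members Kdm7a, Phf2 and Phf8 differed by -0.03, -0.10 and 0.13, and a second, unused probe set of Kdm7a gave -0.28 (adjusted p = 0.256 over all probe sets). Jarid2, a subunit of polycomb repressive complexes that lacks demethylase activity, differed by 0.06. The flavin-dependent histone demethylases, which need neither iron nor 2-oxoglutarate, served as a reference: Kdm1a differed by 0.18 (adjusted p = 0.0931) and Kdm1b by 0.04 (adjusted p = 0.772).

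Among 8 JmjC hydroxylases and other small JmjC proteins, 1 rose, none fell and 7 did not pass, with a median of 0.12. The share called was 12.5%, beside 13.2% of all genes and 20.4% of genes above the median signal. Riox2 encodes a nucleolar oxygenase that hydroxylates a ribosomal protein. Its signals were 7.20, 7.23 and 7.36 in untreated cells and 7.67, 7.61 and 7.60 with vitamin C. All vitamin C arrays were higher, and Riox2 rose by 0.36 ± 0.07 (SE, n = 3 each, adjusted p = 0.0151). It was not called without untreated replicate 1 (adjusted p = 0.053) or 2 (0.0535) and without vitamin C replicate 1 (0.0545). The other ribosomal oxygenase gene, Riox1, differed by 0.11 with overlapping groups. Hspbap1 (0.23, adjusted p = 0.0635) and Jmjd6 (0.17, adjusted p = 0.206), the latter a lysyl hydroxylase of splicing factors, had higher values on all vitamin C arrays without passing. Kdm8, Jmjd4, Jmjd8 and the tRNA-modifying Tyw5 differed by 0.13, 0.07, -0.17 and 0.01.

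The ALKBH proteins and FTO remove alkyl groups from DNA and RNA or modify tRNA and proteins. Of 8 measured genes, 2 fell, none rose and 6 did not pass. That is 25% called, beside 13.2% of all genes and 20.4% of genes above the median signal, where all 8 lie. The median was -0.23, beside 0.01 over all genes and -0.03 over genes above the median signal. The groups did not overlap for 5 of the 8, all 5 lower with vitamin C, beside 18.2% lower in this way among all genes and 30.5% among genes above the median signal. Alkbh8, which modifies the wobble uridine of tRNA, went from 7.01, 6.97 and 7.10 to 6.71, 6.76 and 6.72, a fall by 0.30 ± 0.06 (SE, n = 3 each, adjusted p = 0.0217). That call held only without untreated replicate 2 among the fits with 1 array left out (adjusted p = 0.0437), and otherwise gave 0.0587 and 0.0719 without untreated replicates 1 and 3 and 0.0689, 0.0516 and 0.0655 without vitamin C replicates 1, 2 and 3. Alkbh4, known to demethylate actin, went from 6.86, 6.96 and 7.02 to 6.71, 6.64 and 6.70. It fell by 0.26 ± 0.07 (SE, n = 3 each, adjusted p = 0.0432), and the call was lost with any 1 array left out (adjusted p from 0.0528 to 0.126), without moderation (0.0681), with quantile normalization (0.0794) and with all probe sets tested (0.0818).

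Alkbh3, which repairs alkylated single-stranded DNA and RNA, had signals of 7.98, 8.34 and 7.99 untreated and 7.76, 7.75 and 7.65 with vitamin C. The untreated arrays were spread out by the high second replicate, and the difference of -0.38 ± 0.11 (SE, adjusted p = 0.0539) did not pass. The mitochondrial Alkbh7 differed by -0.25 (adjusted p = 0.0834). Alkbh5 and Fto both remove the methyl group of N6-methyladenosine in RNA. Alkbh5 differed by -0.21 ± 0.06 (SE, adjusted p = 0.0648), lower on all vitamin C arrays, and Fto by -0.13 with overlapping groups and an interval from -0.36 to 0.10. Alkbh2, which repairs alkylated DNA, and Alkbh6 differed by 0.07 and 0.03. Of 11 measured writers and readers of N6-methyladenosine, 1 rose and none fell (9.1% called, beside 13.2% of all genes). The reader gene Ythdf1 rose by 0.28 ± 0.06 (SE, adjusted p = 0.03). Its call was lost with any 1 array left out (adjusted p from 0.0536 to 0.0911), after median centring (0.0594) and in the fit over every probe set (0.0593). The methyltransferase genes Mettl3 and Mettl14 differed by -0.08 and 0.02.

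The OGFOD proteins are a small family whose member Ogfod1 hydroxylates a proline of a ribosomal protein. Ogfod3 had signals of 6.68, 6.73 and 6.83 in untreated cells and 6.02, 6.32 and 6.12 with vitamin C. The groups were well apart, and Ogfod3 fell by 0.59 ± 0.09 (SE, n = 3 each, adjusted p = 0.00702), a 1.51-fold fall. Ogfod1 differed by -0.16 (adjusted p = 0.118), lower on all vitamin C arrays, and Ogfod2 by 0.12.

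Phyhd1, a relative of the peroxisomal phytanoyl-CoA hydroxylase, had signals of 7.07, 7.26 and 7.17 untreated and 6.74, 6.47 and 6.48 with vitamin C. It fell by 0.61 ± 0.09 (SE, n = 3 each, adjusted p = 0.00749; 0.0528 without moderation), the second largest difference of the 56 genes. Phyh itself, which starts the alpha-oxidation of phytanic acid, differed by 0.0025 ± 0.06 (SE), with an interval from -0.14 to 0.14. Bbox1, the last enzyme of carnitine synthesis, differed by 0.13, on a probe set with values of 2.95 to 3.42, below the lower quartile of every array. Of 3 further genes whose products serve carnitine synthesis, Aldh9a1 fell by 0.39 ± 0.10 (SE, adjusted p = 0.0493) and Shmt2 by 0.23 ± 0.06 (SE, adjusted p = 0.0454), and Shmt1 did not pass. That is 66.7% called, beside 13.2% of all genes (7.4% lower) and 20.4% (13% lower) of genes above the median signal. These shares were not tested against each other. The call of Shmt2 was lost with any 1 array left out (adjusted p from 0.0794 to 0.127), and that of Aldh9a1 in each such fit except the one without vitamin C replicate 2 (from 0.0844 to 0.139 in the others). With all probe sets tested, Shmt2 gave 0.0765 and Aldh9a1 0.113, and Aldh9a1 gave 0.149 without moderation, 0.0641 with quantile normalization and 0.0525 with array weights.

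**Figure D3:**
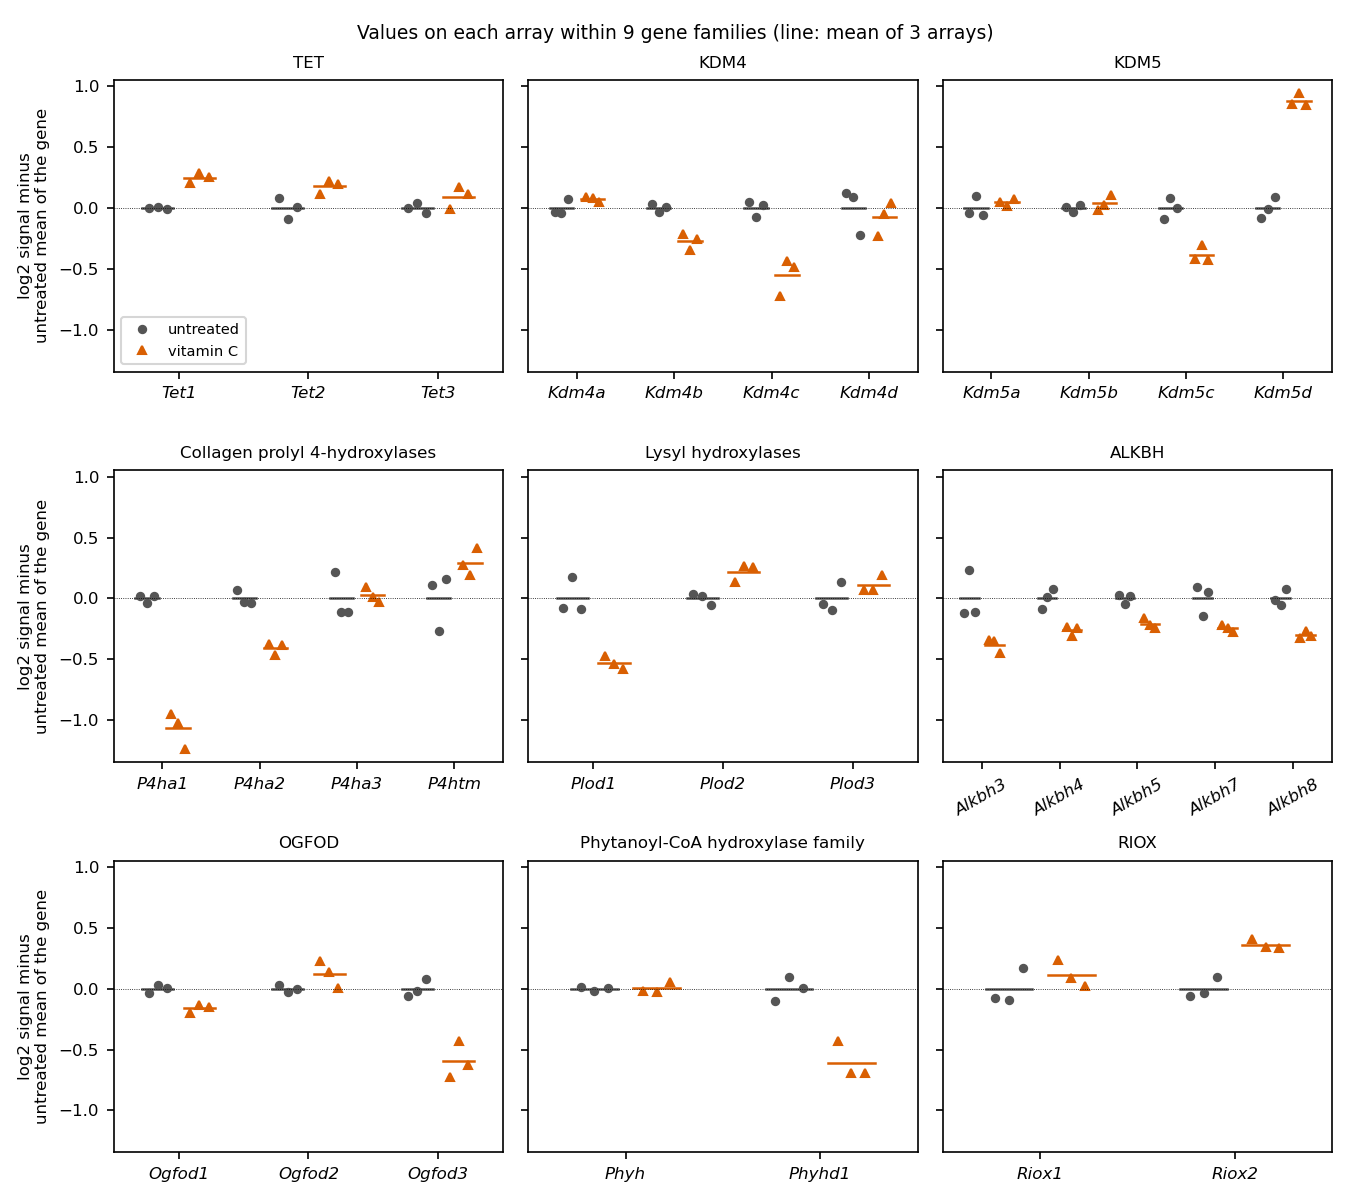
Each array's log2 signal minus the untreated mean of the same gene (y axis) for related genes (x axis) in 9 families, with circles for the 3 untreated arrays, triangles for the 3 vitamin C arrays and lines for the means. Within families the genes differ: P4ha1 lies near -1.07 while P4ha3 lies at 0.03, Plod1 at -0.53 while Plod2 lies at 0.22, and Kdm5c at -0.39 while Kdm5d lies at 0.88.

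The oxygen-sensing relatives of these enzymes, encoded by Egln1, Egln2, Egln3 and Hif1an, hydroxylate HIF. They are part of the 9 measured oxygenases outside the list, with Kdm5d, Uty, Hr, Rsbn1 and Rsbn1l. Of all 9, 1 fell and 1 rose (Kdm5d), which is 22.2% called beside 13.2% of all genes. The one that fell was the HIF prolyl hydroxylase gene Egln3, by 0.94 ± 0.08 (SE, adjusted p = 0.000769), from 6.50, 6.49 and 6.30 to 5.40, 5.52 and 5.55. Egln1 (-0.22, adjusted p = 0.12) and Egln2 (0.21, adjusted p = 0.129) differed in opposite directions without passing, and the asparaginyl hydroxylase gene Hif1an differed by 0.10 (adjusted p = 0.443).

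**Figure D4:**
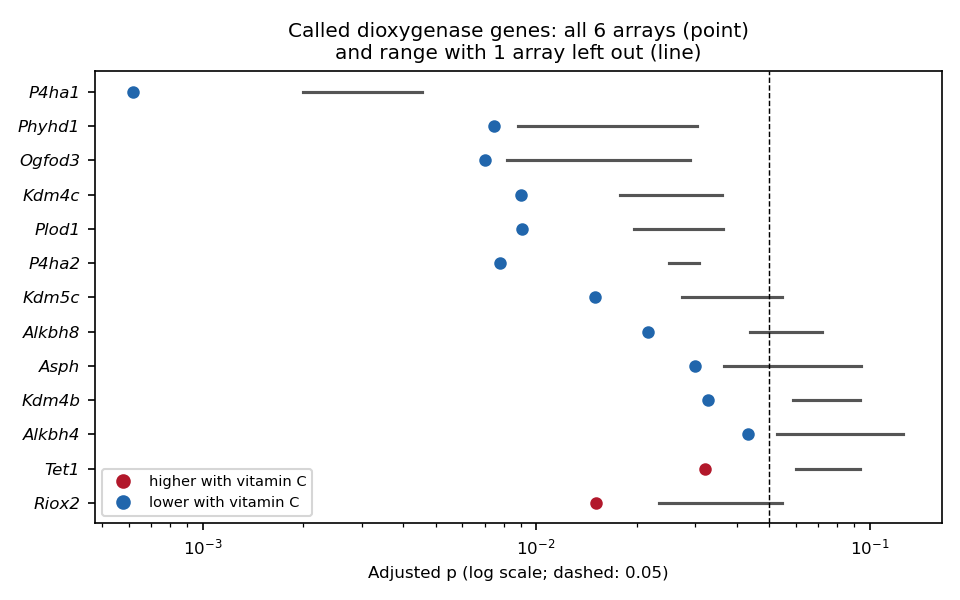
Adjusted p (x axis, log scale) of the 13 called dioxygenase genes (y axis) with all 6 arrays (points) and its range over the 6 fits with 1 array left out (lines). The lines of 6 genes stay left of 0.05, and those of Tet1, Kdm4b and Alkbh4 lie wholly to its right.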

How the data were processed

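The authors deposited log2 signals, a scale read from the spread of the values. They were made with RMA, per the submitters' processing notes; which software and probe-set level is not given in the sources used here. RMA gives arrays like distributions, and a shift common to every gene is therefore lost. Array medians lay between 5.52 and 5.60. No detection calls were used. Of 35557 probe sets, 21789 had 1 symbol, 1621 had several and 12147 had none; 21698 matched a GRCm38.p6 gene table by gene ID, and 0 symbols changed. For genes with several probe sets the one with the highest mean over the 6 arrays was used.

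Sample titles gave the groups. The 2 groups were compared in R 4.3.3 with limma 3.58.1, using lmFit and default eBayes with no covariate. The test was also run on simulated data with independent noise for each gene, so that run does not measure the error rate on these arrays. The number of arrays limits the precision. Each p-value sets a difference against the spread between these cultures, which default eBayes moderates with the spread of all genes tested. Full values are given for called genes, the TET genes, uncalled genes without overlap that differ by at least 0.3, and the largest difference of each family; called pathway genes and 9 reference genes of those pathways are named, and up to 4 called markers of each list. Other values were chosen after they were seen. The members and lists were chosen with earlier results of these data known. Summed signals are sums of 2 raised to the log2 signal, so bright probe sets weigh most in them. Motifs were searched in RefSeq promoter windows. Figures were drawn with matplotlib 3.10.9. The alternatives changed the spread model, normalization, dim-gene filter, probe sets, array weights, threshold, replicate block and arrays included.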

Additional observations from a re-analysis of the deposited data

Results flagged for a closer look

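A probe set of Tet1 that the gene results do not use (the second of 3) passed in the fit over all probe sets. The probe set used did not pass there, with nearly the same difference (0.25). The unused probe set went from a mean log2 signal of 9.63 to 9.89 with vitamin C, a difference of 0.26 ± 0.05 (SE, limma adjusted p = 0.0469 over all 35557 probe sets). In the same fit the adjusted p was 0.0558 for the Tet1 probe set used and 0.102 for the remaining one.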

How the results depend on the processing

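All 13 called dioxygenase genes kept their direction in 15 other settings each, and P4ha1, P4ha2 and Ogfod3 passed in all 15. Direction could not change in every setting. Those that altered only the spread model, the moderation, the genes or probe sets tested or the replicate block give the same difference by construction. So does the mean of all probe sets for a gene with 1 probe set. The 2 dioxygenase genes called higher became 4 with a trended and robust spread model, quantile normalization, genes above the median signal only or a threshold of 0.10, 1 with arrays centred on their median, all probe sets tested or the replicate block, and 0 at a threshold of 0.01. The 11 called lower became 7 with the replicate block and 6 at a threshold of 0.01. With 1 array left out, 0 to 1 were higher and 6 to 8 lower. Over all genes, 1147 higher and 1476 lower became 1731 and 2420 with the trended and robust model, 667 and 878 without moderation, 763 and 960 with the replicate block, 1853 and 2243 at 0.10 and 405 and 496 at 0.01. The count of genes lower was 2240 among genes above the median signal only, and all probe sets gave 1070 lower. With 1 array left out the counts were 663 to 733 higher and 820 to 988 lower. Fewer genes or arrays in a fit account for some of these moves by construction; for the rest the cause was not tested.

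The replicate numbers are not stated to pair the cultures, and deviations of same-numbered arrays from their group means correlated at 0.052, 0.0096 and -0.024. Not every array correlated best with its own number. With the replicate block 8 dioxygenase genes were called (1 higher and 7 lower). Genes that did not pass and lay near 0 changed sign: with arrays centred on their median, Kdm2b (-0.017), Kdm3a (-0.0042), Kdm5b (-0.0021), Tyw5 (-0.030), P4ha3 (-0.014), Alkbh6 (-0.0046), Phyh (-0.037) and Mettl14 (-0.024), and with quantile normalization Kdm6b (0.023) and P4ha3 (-0.043). With 1 array left out, the ranges crossed 0 for Kdm2b (-0.016 to 0.090), Jmjd1c (-0.017 to 0.088), Kdm6b (-0.044 to 0.018), Kdm7a (-0.099 to 0.034), Jmjd4 (-0.0063 to 0.21), Tyw5 (-0.056 to 0.070), P4ha3 (-0.029 to 0.13), Alkbh2 (-0.0076 to 0.18), Alkbh6 (-0.024 to 0.1), Phyh (-0.025 to 0.018), Kdm1b (-0.016 to 0.086) and Mettl14 (-0.0053 to 0.032). Dim probe sets and the 3 arrays of a group limit what can be seen.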

Other observations

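Probe sets that carry several symbols were kept out of the gene results. The probe set shared by Alkbh1 and Nrp had mean log2 signals of 7.97 untreated and 7.80 with vitamin C, a difference of -0.17 ± 0.06 (SE, limma adjusted p = 0.185 over all probe sets). A probe set shared by P3h1 and AU022252 differed by 0.09, where the P3h1 probe set differed by -0.08, and neither passed. A probe set of 4 symbols that include P3h3 differed by 0.08, and that of P3h3 alone by 0.24. The second probe set of Jmjd1c differed by 0.12, beside 0.04 for the one used.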
